A study of Homo sapiens with 9 samples.

Results

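The transcripts of 10 genes that govern passage through G1 were followed in HCT116, a widely used cell line from a human colorectal carcinoma: the cyclins CCND1, CCND3, CCNE1 and CCNE2, the cyclin-dependent kinases CDK2, CDK4 and CDK6, the kinase inhibitors CDKN1B (p27) and CDKN2C (p18), and the phosphatase CDC25A. They were chosen by name, and each matched 1 of the 15354 rows of the deposited table, so all 10 of 10 were measured. RNA had been sequenced 36 h after reverse transfection with siRNA at 25 nM by the labels (the methods of the study state another concentration), in 9 libraries of 3 groups. The control group received a commercial non-targeting siRNA, and the groups labelled siRNA A and siRNA B each received a different siRNA against SNHG5, a long non-coding RNA that hosts small nucleolar RNAs, with 3 replicate libraries per group. All groups were the same unmodified line in the same transfection reagent. No genotype, age or further treatment was stated, and which of the study's named siRNAs was A or B was not stated. The study called the replicates biological, and all came from 1 cell line.

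In G1, D-type cyclins bind CDK4 or CDK6 and begin to phosphorylate the retinoblastoma protein RB, which holds E2F transcription factors in check. E-type cyclins bind CDK2 and complete that step, after which E2F target genes are transcribed and DNA replication starts. The INK4 inhibitors, to which CDKN2C belongs, bind CDK4 and CDK6, the CIP/KIP inhibitors, to which CDKN1B belongs, bind cyclin-CDK complexes, and CDC25A removes inhibitory phosphates from CDK2. Much of this control acts on protein synthesis, phosphorylation and degradation, none of which RNA-seq measures.

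SNHG5, the targeted RNA, was higher in the siRNA libraries than in the control, against the direction a knockdown label states. It stood at 31.3, 22.1 and 26.0 CPM (reads of a gene at a fixed common library total, scaled by TMM factors as described next) in control, at 71.7, 58.8 and 67.4 in siRNA A and at 46.2, 50.2 and 46.0 in siRNA B. The log2 difference against control was 1.29 in siRNA A and 0.83 in siRNA B (adjusted p = 1.83e-05 and 5.96e-04, limma); both passed with library totals, while with the PCR reference genes described next it was 0.70 (adjusted p = 0.00240, limma) and 0.20, which did not pass (adjusted p = 0.302, limma). The groups are therefore called by their labels throughout. The epithelial markers EPCAM and KRT8 stood at 111 to 194 and 757 to 1882 CPM, while KRT20, CEACAM5 and LGR5 were below 1 CPM in all libraries. Of the 16 markers of other cell types, 8 were not analysed here (among them PTPRC, CD3E and PECAM1), and COL1A1 was the highest of the others, at 8.71 to 17.5 CPM. The libraries held 15566530 to 23277549 reads. The chi-square statistic of siRNA B replicate 2 against the other siRNA B replicates was 41.1 and 52.5 per degree of freedom, against 20.9 between those, and results that turn on this library are given with and without it. Replicate 2 of siRNA A also stood apart, at 29.3 and 27.3 against the other siRNA A replicates and 12.6 between those. The control libraries were uneven too. Control 1 stood at 37.5 against control 2 and 25.4 against control 3, with 19.1 between controls 2 and 3.

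Scaling set part of every comparison with the control. Levels below are CPM divided by TMM factors (trimmed mean of M values, which centre the bulk of genes between libraries), averaging 1.14 in control, 0.885 in siRNA A and 0.989 in siRNA B. Fold changes were differences of log2(TMM-scaled CPM + 1), given with the standard error (SE) and with p-values of limma's moderated linear model adjusted by the Benjamini-Hochberg method over 13893 genes. A gene was said to rise or fall where that adjusted p was under 0.05. Over all tested genes, the median log2 fold change against control was −0.02 (siRNA A) and 0.0030 (siRNA B), but −0.34 and −0.18 with library totals alone, and −0.56 and −0.58 when libraries were scaled to GAPDH, RPLP0 and HPRT1, the reference genes of the study's PCR. Fewer cells of a type and less RNA per cell cannot be told apart in such bulk libraries.

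The promoters show which regulatory letters lie beside these genes. RefSeq promoters on GRCh38.p14 (250 bases before and 50 after the transcript start) were held for 7 of the 10 genes, in 12 windows, and not for CCND1, CCNE2 and CDK2. Those of CCNE1, CDKN1B, CDC25A and CDK4 are printed because they differ most plainly in these motifs, 5′ to 3′ on the gene's strand, with the letters of any match in capitals. The motifs searched on both strands were an E2F site (TTTGGCGC), a GC box (GGGCGG) and an E-box (CACGTG). They were at chr19:29811741-29812040 on the plus strand for CCNE1, chr12:12717118-12717417 on the plus strand for CDKN1B, chr3:48188368-48188667 on the minus strand for CDC25A and chr12:57752261-57752560 on the minus strand for CDK4.
CCNE1: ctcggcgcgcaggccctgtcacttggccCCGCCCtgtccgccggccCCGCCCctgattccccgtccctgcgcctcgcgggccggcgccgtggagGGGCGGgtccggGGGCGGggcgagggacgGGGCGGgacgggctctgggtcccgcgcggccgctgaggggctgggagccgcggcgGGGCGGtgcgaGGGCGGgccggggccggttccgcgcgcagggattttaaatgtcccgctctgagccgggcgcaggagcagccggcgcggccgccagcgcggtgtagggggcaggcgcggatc
CDKN1B: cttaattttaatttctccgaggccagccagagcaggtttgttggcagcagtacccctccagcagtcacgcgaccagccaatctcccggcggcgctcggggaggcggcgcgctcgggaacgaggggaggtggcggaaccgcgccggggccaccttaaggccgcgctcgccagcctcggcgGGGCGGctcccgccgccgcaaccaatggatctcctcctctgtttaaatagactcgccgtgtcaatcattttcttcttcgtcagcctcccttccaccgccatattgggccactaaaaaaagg
CDC25A: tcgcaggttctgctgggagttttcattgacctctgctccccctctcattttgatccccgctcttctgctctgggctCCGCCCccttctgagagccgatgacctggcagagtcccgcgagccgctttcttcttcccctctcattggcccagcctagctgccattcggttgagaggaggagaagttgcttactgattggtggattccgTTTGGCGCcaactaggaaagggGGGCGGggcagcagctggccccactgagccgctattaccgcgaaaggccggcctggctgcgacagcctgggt
CDK4: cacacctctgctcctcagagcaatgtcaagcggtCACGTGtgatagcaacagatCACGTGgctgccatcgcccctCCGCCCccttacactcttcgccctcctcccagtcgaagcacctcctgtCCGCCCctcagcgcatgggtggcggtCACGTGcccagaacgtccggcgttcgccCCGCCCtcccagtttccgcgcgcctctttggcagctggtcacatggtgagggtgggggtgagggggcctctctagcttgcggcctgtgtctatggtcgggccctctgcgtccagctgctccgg

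The CCNE1 promoter held 7 GC boxes and that of CDKN1B 1. The CDC25A promoter held 2 GC boxes and the only exact match to the E2F letters among the 12 windows, and the CDK4 promoter held 3 GC boxes and 3 E-boxes. Of all 35116 promoters in the table, 0.652% held these E2F letters, 45.0% the GC box and 7.26% the E-box. Among the 12 windows the GC box was in 9 and the E-box in 4, the latter belonging to CDK4, CDK6 and CDKN2C. These matches describe letters and not occupied sites, matches to different motifs did not overlap in the printed windows, and a looser form of a motif was not searched.

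In control cells the 10 transcripts spanned a wide range. Divided by merged exon length, CCND1, a D-type cyclin, was the highest at 217 ± 7.36 TMM-scaled CPM per kilobase (SD, n = 3). CDK4, its catalytic partner, followed at 53.4 ± 3.95. CCNE1 at 33.2 ± 1.29 and CDK2 at 31.9 ± 1.22 overlapped in their libraries, and so did CDC25A at 24.1 ± 2.39 and CDK6 at 23.3 ± 2.12. Below them stood CCNE2 at 15.3 ± 0.611, CCND3 at 6.63 ± 0.313, CDKN1B at 4.20 ± 0.528 and CDKN2C at 2.79 ± 0.159, none of which overlapped the next. CCND1 ranked 1 and CDK4 ranked 2 in all 9 libraries and CCNE2 ranked 7, whereas CDC25A moved between ranks 3 and 6. Per length of the longest transcript, CDK2 (47.8) passed CCNE1 (41.9), since the order of neighbours depends on the length used.

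**Figure D1:**
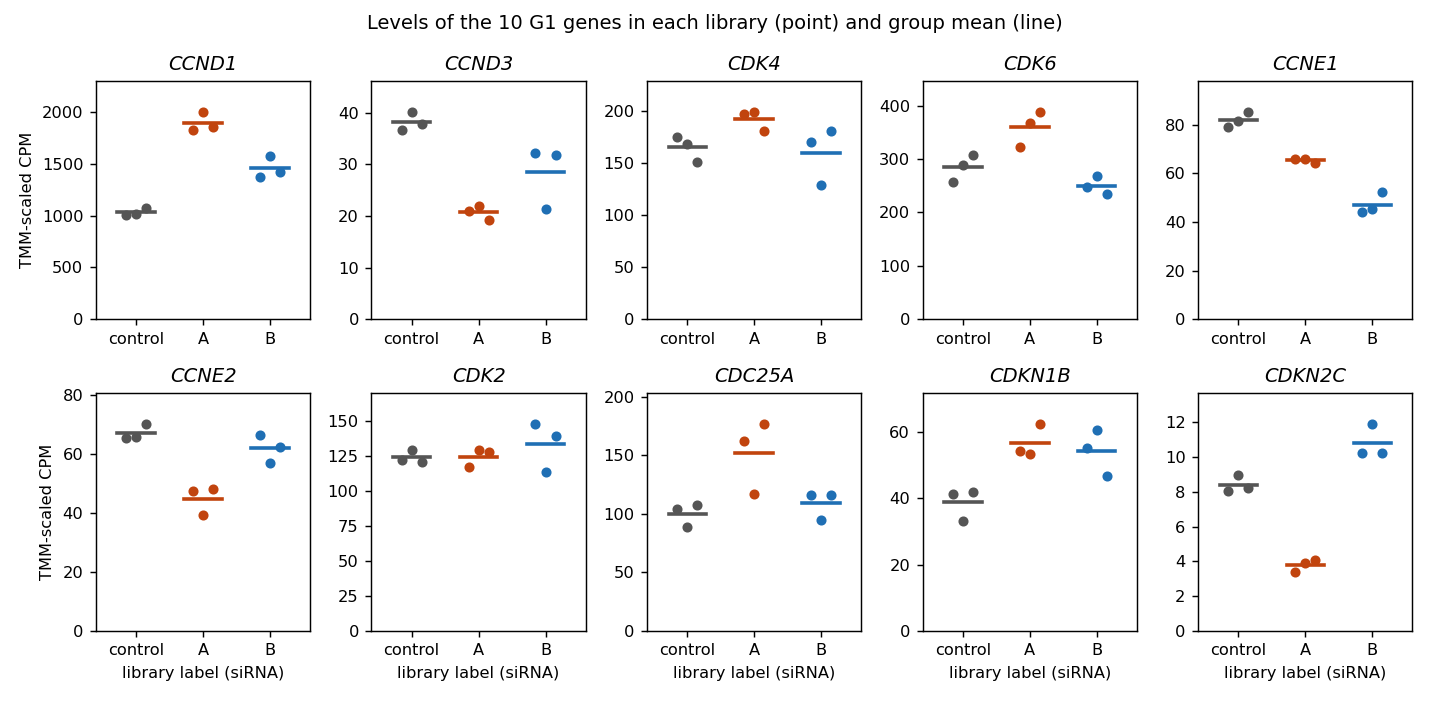
Level of each of the 10 G1 genes (vertical axis, TMM-scaled CPM, starting at 0) in the control, siRNA A and siRNA B libraries; points are libraries in the order of their replicate number and lines are group means, n = 3. CCND1 is higher in all siRNA libraries than in the control, CCNE1 is lower in all of them, and CDKN2C is lower than control in siRNA A and higher in siRNA B, while CDK2 overlaps between all groups.

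The D-type cyclins moved apart. CCND1 (ENSG00000110092.3, GRCh37 chr11:69455924-69469242, plus strand) was at 1007, 1021 and 1074 TMM-scaled CPM in control, 1831, 2003 and 1861 in siRNA A and 1375, 1582 and 1424 in siRNA B. The groups did not overlap, and siRNA A lay above siRNA B. CCND1 rose by 0.88 on the log2 scale in siRNA A (SE 0.109, adjusted p = 6.99e-05, limma), a 1.84-fold higher mean, and by 0.50 in siRNA B (SE 0.109, adjusted p = 0.00465, limma), 1.41-fold. With library totals alone the rises were 0.51 and 0.29 and still passed, while with the PCR reference genes they became 0.26 and −0.16 and neither passed (adjusted p = 0.137 and 0.340, limma). Set against the median gene of the same scaling, CCND1 stood 0.82 to 0.90 above it in siRNA A and 0.42 to 0.49 in siRNA B over the 3 scalings.

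CCND3 (ENSG00000112576.8, GRCh37 chr6:41902672-42018095, minus strand), the other D-type cyclin with a readable level, was at 36.6, 40.2 and 37.8 TMM-scaled CPM in control, 21.1, 21.98 and 19.3 in siRNA A and 32.3, 21.4 and 31.8 in siRNA B. Every siRNA library lay below every control library, but siRNA B replicate 2 sat within the siRNA A range and apart from its own group. CCND3 fell by 0.85 on the log2 scale in siRNA A (SE 0.146, adjusted p = 5.78e-04, limma), and by 0.43 in siRNA B (SE 0.146, adjusted p = 0.0397, limma). The siRNA B fall was −0.24 without siRNA B replicate 2 (adjusted p = 0.106, limma), and leaving out any control library, or siRNA A replicate 1 or 3, ended the call too (adjusted p from 0.0510 to 0.115). Under both other scalings CCND3 was lower in each comparison with control and passed. The third D-type cyclin, CCND2, had at most 0.044 TMM-scaled CPM in any library, under the level that 3 reads give (0.129 to 0.193 CPM), so no fold is given.

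The ratio of these cyclins within a library does not depend on scaling. Per kilobase, CCND1 was 33.3, 30.8 and 34.4 times CCND3 in control, 105, 110 and 117 times in siRNA A and 51.5, 89.5 and 54.2 times in siRNA B. Neither siRNA group overlapped the control. An exact two-sided permutation test gave p = 0.1 for each siRNA, the smallest that 3 against 3 libraries allow (0.16 after adjustment over 8 ratio comparisons), so no ratio could pass 0.05 in this design.

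D-type cyclins bind the kinases CDK4 and CDK6. CDK4 (ENSG00000135446.11, GRCh37 chr12:58141510-58149796, minus strand) was at 175, 168 and 152 TMM-scaled CPM in control, 198, 199 and 181 in siRNA A and 171, 129 and 181 in siRNA B. The siRNA A values lay above the control without passing the test: the log2 difference was 0.22 (95% interval −0.05 to 0.50, adjusted p = 0.163, limma), and it turned to −0.15 with library totals and to −0.39 with the PCR reference genes (adjusted p = 0.0172, limma). For siRNA B it was −0.06 (95% interval −0.33 to 0.22, adjusted p = 0.764, limma), and 0.09 without the low replicate 2. With the PCR reference genes the siRNA B difference was −0.71 and passed (adjusted p = 4.13e-04, limma).

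CDK6 (ENSG00000105810.5, GRCh37 chr7:92234235-92465887, minus strand) was at 257, 289 and 308 TMM-scaled CPM in control, 323, 368 and 388 in siRNA A and 247, 268 and 234 in siRNA B. The siRNA A group was above both others, and siRNA B overlapped the control. CDK6 rose by 0.34 in siRNA A (SE 0.110, adjusted p = 0.0229, limma), but the change was −0.03 with library totals and −0.28 with the PCR reference genes, and leaving out control replicate 1 (0.26), siRNA A replicate 2 (0.32) or siRNA A replicate 3 (0.28) ended the call, with adjusted p of 0.0893, 0.0575 and 0.0834 by limma. In siRNA B the difference was −0.19 (95% interval −0.43 to 0.05, adjusted p = 0.212, limma), which passed as −0.40 with library totals and −0.84 with the PCR reference genes. The CDK4 to CDK6 ratio per kilobase was 2.32 ± 0.379 in control, 2.13 ± 0.288 in siRNA A and 2.56 ± 0.593 in siRNA B (SD, n = 3), and the groups overlapped (exact permutation p = 0.5 and 0.7).

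Both E-type cyclins were lower in siRNA A, and CCNE1 was the one lower in siRNA B. CCNE1 (ENSG00000105173.9, GRCh37 chr19:30302898-30315219, plus strand, with no overlapping gene) was at 78.8, 81.5 and 85.2 TMM-scaled CPM in control, 65.9, 65.9 and 64.0 in siRNA A and 43.9, 45.1 and 52.3 in siRNA B. The groups were separate, with siRNA B the lowest. CCNE1 fell by 0.32 in siRNA A (SE 0.0963, adjusted p = 0.0154, limma) and by 0.79 in siRNA B (SE 0.0963, adjusted p = 1.27e-04, limma), and it fell and passed under both other scalings too. Without control replicate 3 the siRNA A fall was −0.29 and no longer passed (adjusted p = 0.0600, limma). The CCNE1 promoter, printed above, was the one with 7 GC boxes.

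CCNE2 (ENSG00000175305.12, GRCh37 chr8:95891998-95908906, minus strand) was at 65.5, 65.7 and 70.2 TMM-scaled CPM in control, 47.3, 39.1 and 48.2 in siRNA A and 66.5, 57.0 and 62.4 in siRNA B. The siRNA A libraries were the lowest, and siRNA B reached into the control range. CCNE2 fell by 0.58 in siRNA A (SE 0.108, adjusted p = 9.84e-04, limma), and under both other scalings as well. In siRNA B the difference was −0.12 (95% interval −0.35 to 0.12, adjusted p = 0.437, limma), and it passed as −0.76 with the PCR reference genes. Per kilobase, CCNE1 was 2.15, 2.21 and 2.17 times CCNE2 in control, 2.49, 3.01 and 2.38 times in siRNA A and 1.18, 1.41 and 1.498 times in siRNA B. This ratio lay above the control in siRNA A and below it in siRNA B, with no overlap (exact permutation p = 0.1 each, the smallest possible).

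CDK2 (ENSG00000123374.6, GRCh37 chr12:56360565-56366573, plus strand), the kinase that E-type cyclins bind, was at 122, 129 and 121 TMM-scaled CPM in control, 117, 129 and 128 in siRNA A and 148, 114 and 140 in siRNA B. All groups overlapped. The log2 differences were 0.0064 in siRNA A (95% interval −0.23 to 0.25, adjusted p = 0.968, limma) and 0.10 in siRNA B (95% interval −0.14 to 0.34, adjusted p = 0.511, limma). With library totals they were −0.36 (adjusted p = 0.0311, limma) and −0.11, and with the PCR reference genes −0.61 (adjusted p = 0.00204, limma) and −0.55 (adjusted p = 0.00397, limma). CDK2 thus tracked the median gene, from which it differed by −0.04 to 0.03 in siRNA A and by 0.03 to 0.10 in siRNA B over the 3 scalings.

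CDC25A (ENSG00000164045.7, GRCh37 chr3:48198636-48229907, minus strand), the phosphatase, was at 104, 88.8 and 108 TMM-scaled CPM in control, 162, 117 and 177 in siRNA A and 116, 94.9 and 116 in siRNA B. It was lowest in replicate 2 of every group, the siRNA A libraries lay above the control, and siRNA B overlapped it. CDC25A rose by 0.58 in siRNA A (SE 0.152, adjusted p = 0.00774, limma), but the change was 0.21 with library totals (adjusted p = 0.297, limma) and −0.03 with the PCR reference genes. In siRNA B the difference was 0.12 (95% interval −0.21 to 0.45, adjusted p = 0.577, limma), which became −0.09 with library totals and −0.53 with the PCR reference genes (adjusted p = 0.0238, limma).

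The inhibitors differed from each other. CDKN1B (ENSG00000111276.6, GRCh37 chr12:12838432-12875303, plus strand), which binds cyclin E-CDK2, was at 41.3, 33.2 and 42.0 TMM-scaled CPM in control, 54.3, 53.5 and 62.5 in siRNA A and 55.1, 60.6 and 46.8 in siRNA B. All siRNA libraries were above all control libraries. CDKN1B rose by 0.54 in siRNA A (SE 0.128, adjusted p = 0.00431, limma) and by 0.47 in siRNA B (SE 0.128, adjusted p = 0.0147, limma). These became 0.18 and 0.27 with library totals (adjusted p = 0.266 and 0.137, limma) and −0.06 and −0.17 with the PCR reference genes, and dropping control replicate 2 ended the call in siRNA B (0.37, adjusted p = 0.0666, limma). CDKN1B relative to CDK2 per kilobase was 0.142, 0.108 and 0.146 in control, 0.195, 0.174 and 0.206 in siRNA A and 0.156, 0.224 and 0.141 in siRNA B. The siRNA A ratios did not overlap the control and those of siRNA B did (exact permutation p = 0.1 and 0.3).

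CDKN2C (ENSG00000123080.6, GRCh37 chr1:51426417-51440306, plus strand), an INK4 inhibitor, was at 8.05, 8.95 and 8.22 TMM-scaled CPM in control, 3.41, 3.93 and 4.08 in siRNA A and 10.2, 11.9 and 10.2 in siRNA B. The siRNA A libraries were the lowest and the siRNA B libraries the highest, with no overlap between any groups. It was the least read of the 10 genes, with 52 to 234 reads per library. CDKN2C fell by 0.97 in siRNA A (SE 0.122, adjusted p = 7.74e-05, limma), a mean 2.21 times higher in control, and under both other scalings as well. In siRNA B the difference was 0.33 (95% interval 0.06 to 0.59, adjusted p = 0.0591, limma), 0.14 with library totals and −0.27 with the PCR reference genes.

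**Figure D2:**
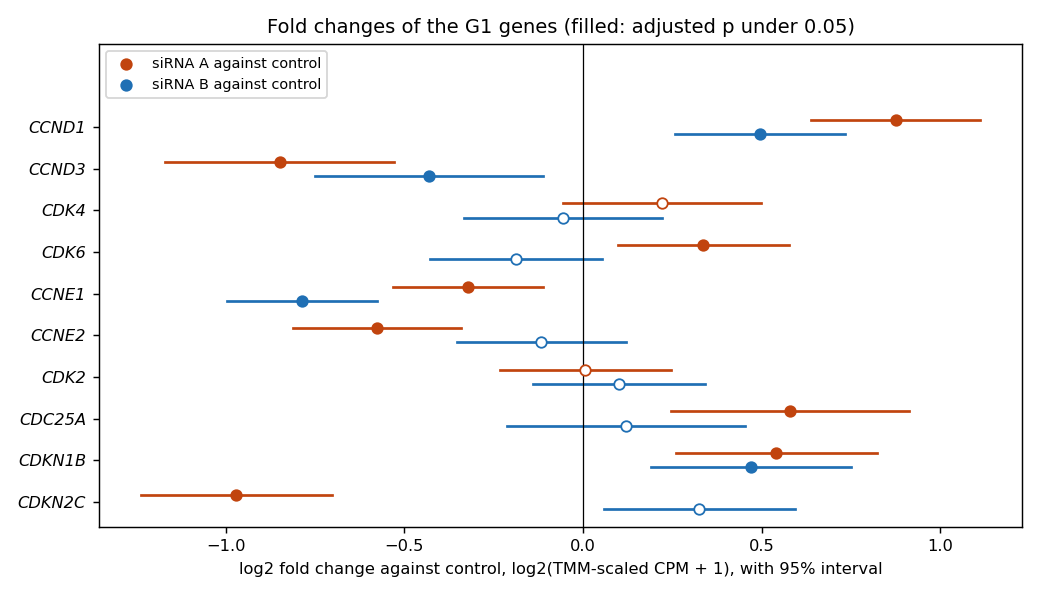
Log2 fold change of each G1 gene against control on log2(TMM-scaled CPM + 1) (horizontal axis), for siRNA A and siRNA B; points are estimates from 3 against 3 libraries, lines are 95% intervals, and filled points have a limma adjusted p under 0.05. CCND1 is at 0.88 and 0.50 and CCNE1 at −0.32 and −0.79, while CDKN2C is at −0.97 in siRNA A and 0.33 in siRNA B.

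Against control, 4 of the 10 genes rose in siRNA A (CCND1, CDK6, CDKN1B, CDC25A) and 4 fell (CCND3, CCNE1, CCNE2, CDKN2C), where 24.0% of all tested genes rose and 27.5% fell. In siRNA B 2 rose (CCND1, CDKN1B) and 2 fell (CCND3, CCNE1), where 15.5% rose and 18.4% fell, so the share of these genes called in siRNA B was near that of all genes. The groups did not overlap for 9 of the 10 genes in siRNA A, where this held for 59.4% of all tested genes, and for 5 in siRNA B, against 47.5%. All 10 genes passed the filter on low values. The 3 control libraries served both comparisons, which are therefore not independent.

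Compared directly, siRNA A was above siRNA B for 4 genes (CCND1, CCNE1, CDK6, CDC25A) and below it for 3 (CCND3, CCNE2, CDKN2C), where 17.8% of all tested genes were higher and 19.3% lower. The siRNA A minus siRNA B difference of CDKN2C was −1.30 on the log2 scale (SE 0.122, adjusted p = 3.13e-05, limma), of CDK6 0.52 (adjusted p = 0.00341, limma) and of CCNE1 0.47 (adjusted p = 0.00312, limma). These 3 passed under every scaling and without any 1 library. The difference of CCNE2 was −0.46 (adjusted p = 0.00634, limma), and it was −0.42 and missed the threshold only with the PCR reference genes (adjusted p = 0.0728, limma).

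The other differences between the siRNAs were less firm. That of CCND1 was 0.38 (adjusted p = 0.0174, limma) and was not called with library totals (0.22), with the PCR reference genes (0.42), or on dropping siRNA B replicate 1 (0.34) or 3 (0.36). That of CDC25A was 0.46 (adjusted p = 0.0340, limma) and was not called with library totals (0.30) or the PCR reference genes (0.50), nor on dropping replicate 1 or 3 of siRNA A or replicate 1 or 2 of siRNA B (0.34 to 0.51). That of CCND3 was −0.42 (adjusted p = 0.0421, limma), with siRNA B replicate 2 inside the siRNA A range, and was lost with the PCR reference genes (−0.38), with no filter on low values (adjusted p = 0.0514, limma), and on leaving out any of 7 libraries (control replicates 2 and 3, siRNA A replicates 1, 2 and 3, siRNA B replicates 1 and 3; −0.46 to −0.32). Without siRNA B replicate 2 the CCND3 difference was −0.60 and passed (adjusted p = 0.00163, limma). CDK2, CDK4 and CDKN1B did not pass, with 95% intervals of −0.33 to 0.14, 0.0014 to 0.55 and −0.21 to 0.35.

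**Figure D3:**
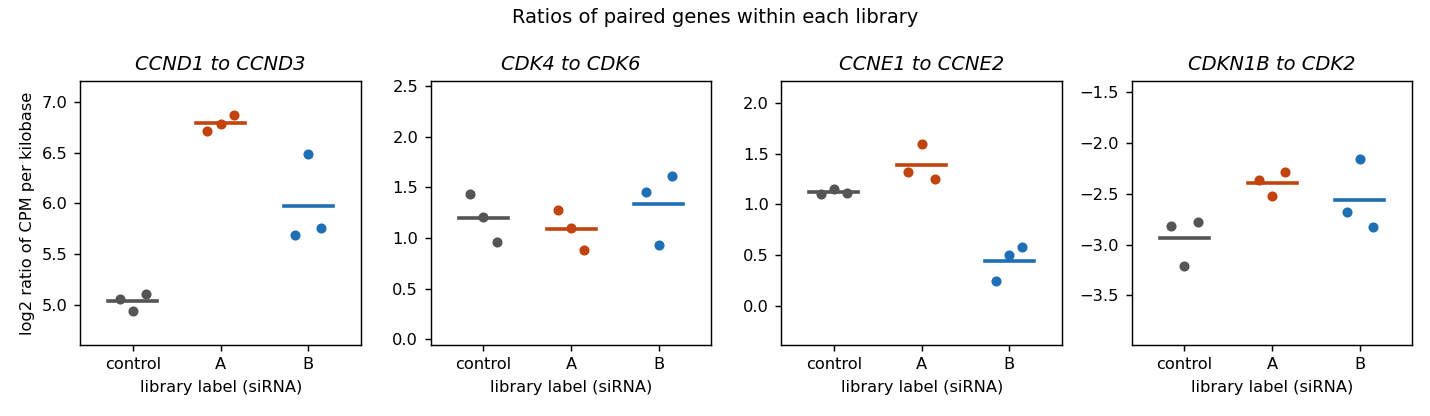
Log2 ratio of CPM per kilobase of 4 gene pairs within each library (vertical axis; each panel spans the same number of log2 units), by group, n = 3; lines are group means. CCND1 to CCND3 is higher in all siRNA libraries than in control, CCNE1 to CCNE2 is above control in siRNA A and below it in siRNA B, and CDK4 to CDK6 overlaps.

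**Figure D4:**
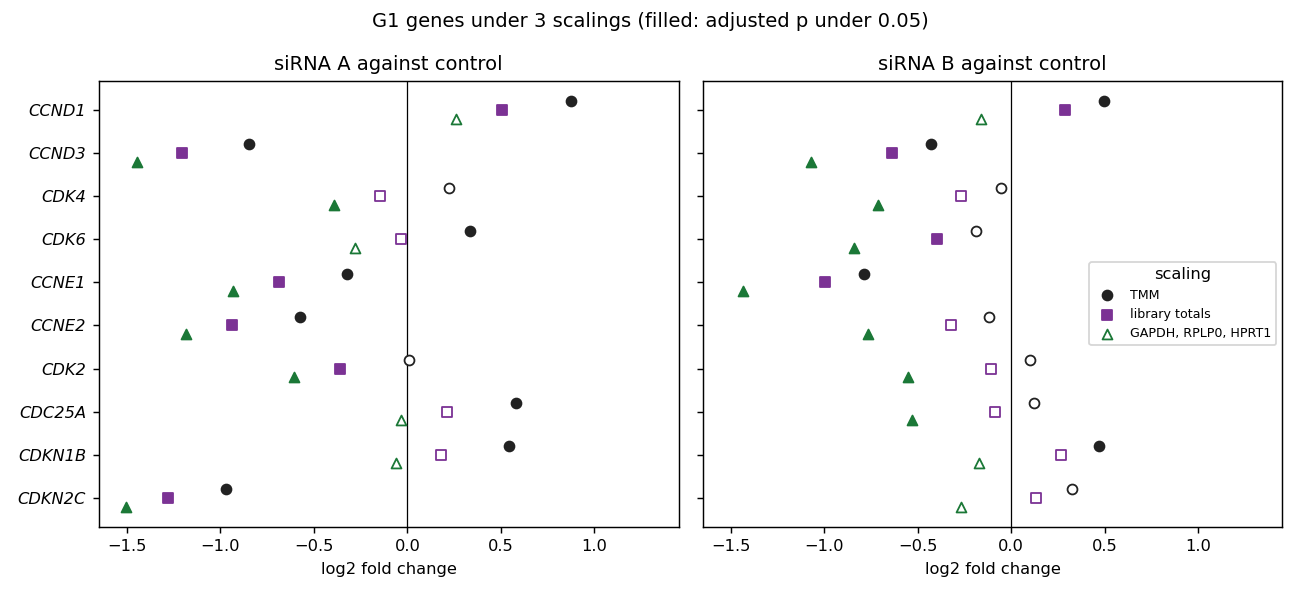
Log2 fold change of each G1 gene against control (horizontal axis) with TMM scaling (circles), library totals (squares) and the PCR reference genes GAPDH, RPLP0 and HPRT1 (triangles); filled symbols have a limma adjusted p under 0.05. Every gene shifts left by a similar amount: CCND1 in siRNA A goes from 0.88 to 0.51 to 0.26, and CCND3 and CCNE1 stay below 0 under all 3 scalings.

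The scaling moved the share of higher calls, both for all genes and for these 10. Of all genes called in siRNA A against control, 46.6% were higher under TMM, 16.1% with library totals and 5.53% with the PCR reference genes. In siRNA B these shares were 45.8%, 18.8% and 1.75%, and in siRNA A against siRNA B 48.0%, 27.4% and 56.0%. The falls of CCND3, CCNE1, CCNE2 and CDKN2C in siRNA A, and of CCNE1 and CCND3 in siRNA B, passed under all 3, whereas the rises of CDK6, CDC25A and CDKN1B passed under TMM alone and that of CCND1 under TMM and library totals.

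Other regulators of G1 included some with larger changes. Beside the counts of this list and those below, 24.0% of all tested genes rose and 27.5% fell in siRNA A. In siRNA B 15.5% rose and 18.4% fell. Of 14 listed, 12 were tested (CDK3 was not analysed here and CCND2 was too low): 4 rose and 3 fell in siRNA A, and 4 rose and 2 fell in siRNA B, with medians of 0.27 and 0.12 beside the −0.02 and 0.0030 of all genes. CDKN1A (p21), a CIP/KIP inhibitor, was at 194, 184 and 185 TMM-scaled CPM in control, 352, 408 and 310 in siRNA A and 619, 641 and 597 in siRNA B. It was higher in every siRNA library and highest in siRNA B, by 0.91 and 1.72 against control (adjusted p = 5.50e-05 and 1.63e-06, limma). CDKN2A, an INK4 locus whose 2 protein products were not told apart by these gene counts, rose by 0.996 and 0.85, and WEE1, a kinase that restrains CDK1 and CDK2, by 1.18 and 0.83. CDKN1C (p57) fell by 1.02 in siRNA A and by 0.90 in siRNA B. With the PCR reference genes 2 of this list rose and 5 fell in siRNA A, and 1 rose and 7 fell in siRNA B. Of all 13893 tested genes, 490 rose and 8371 fell in siRNA A with that scaling. In siRNA B 163 rose and 9155 fell. The count of 2 falls in siRNA B was 1 with no filter on low values, by edgeR or DESeq2, and on leaving out any library but siRNA A replicate 2. CDKN2D, an INK4 inhibitor named after its values were seen, had the weaker of those falls (−0.45, adjusted p = 0.0473, limma).

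The RB and E2F genes lie directly downstream of the G1 kinases. Of 13 tested, 2 rose and 7 fell in siRNA A, and 1 rose and 5 fell in siRNA B (2 on leaving out control replicate 2, and 3 on leaving out any other control library or any siRNA B library), with medians of −0.27 and −0.25. E2F1, an activating E2F, was at 31.9, 29.8 and 32.0 TMM-scaled CPM in control, 10.88, 7.63 and 9.06 in siRNA A and 16.7, 10.2 and 16.2 in siRNA B. All siRNA libraries were below the control, and the E2F1 falls were −1.67 and −1.10 (adjusted p = 2.40e-05 and 7.24e-04, limma). TFDP1, a dimer partner of E2F, fell by 1.01 and 0.41 and E2F2 by 0.98 and 0.47, RBL2, an RB relative, by 0.75 and 0.77, while E2F3 rose by 0.43 and 0.59. E2F6, a repressor E2F, rose by 0.49 in siRNA A and fell by 0.35 in siRNA B. In siRNA B, 8 of this list fell with library totals and 11 with the PCR reference genes. Of all 13893 tested genes, 4127 and 9155 fell there. With library totals and with the PCR reference genes 0 of this list rose in siRNA A, so the E2F3 and E2F6 rises were lost. The E2F3 rise in siRNA B was lost with the PCR reference genes, where 0 rose.

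Genes that turn over G1 proteins included the gene with the steepest fall of these lists. Of 10 tested, 3 rose and 3 fell in siRNA A, and 3 rose and 2 fell in siRNA B, with medians of −0.22 and −0.04. CDC34, the ubiquitin-conjugating enzyme that works with SCF ligases on targets such as CDKN1B protein, fell by 2.04 in siRNA A and by 2.68 in siRNA B (adjusted p = 1.39e-06 and 5.26e-07, limma). The SCF subunit RBX1 rose by 1.10 and 0.89 and CKS1B, a cofactor of the SKP2 ligase, by 0.77 and 0.56. AMBRA1, an adaptor that targets D-type cyclins for degradation, fell by 1.12 in siRNA B, and in siRNA A its difference was −0.25 (adjusted p = 0.113, limma). With library totals 7 fell in siRNA A, and 1 rose and 4 fell in siRNA B. With the PCR reference genes 7 fell and 1 rose in siRNA A, and 6 fell and 0 rose in siRNA B. The RBX1 and CKS1B rises in siRNA B were thus lost with the PCR reference genes. Of all 13893 tested genes, 6532 fell in siRNA A and 4127 in siRNA B with library totals. The PCR reference genes gave 8371 and 9155.

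Of 20 S phase genes, which follow G1 exit, 4 rose and 5 fell in siRNA A, and 2 rose and 4 fell in siRNA B, with medians of −0.17 and −0.0037. Among all tested genes 24.0% rose and 27.5% fell in siRNA A, and 15.5% and 18.4% in siRNA B. CHAF1A, a histone chaperone subunit of replicating chromatin, fell by 1.66 and 0.85, and GINS2 of the replicative helicase by 1.03 and 0.71. CDC45, its partner, fell by 1.46 in siRNA A and differed by −0.60 in siRNA B (adjusted p = 0.0514, limma), and MCM2 fell by 0.70 in siRNA B and differed by −0.25 in siRNA A (adjusted p = 0.0741, limma). Leaving out 1 library moved the siRNA A rises to 2 (without siRNA A replicate 1) and falls to 3 (without siRNA A replicate 2), and the siRNA B rises to 1 (when control replicate 1 or 2, or siRNA B replicate 1, was dropped) or 4 (when siRNA B replicate 2 was). With library totals 13 fell in siRNA A, and with the PCR reference genes 16 fell there and 18 in siRNA B. Over all 13893 tested genes, 6532 fell in siRNA A with library totals. The PCR reference genes gave 8371 falls there and 9155 in siRNA B. Under both of these scalings 0 rose with either siRNA.

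Of 15 mitosis genes, 0 rose and 4 fell in siRNA A by limma (0 rose also at an unadjusted p under 0.05, and by edgeR and DESeq2), and 1 rose and 1 fell in siRNA B, with medians of −0.18 and 0.15. MKI67, a proliferation marker, fell by 0.55 in siRNA A, and CCNB2 by 0.54. TOP2A, a topoisomerase of dividing cells, fell by 0.54 in siRNA A and rose by 0.51 in siRNA B, and PLK1 fell by 0.29 in siRNA B. These counts rested on single libraries. In siRNA A the falls were 2 without control replicate 1 and 1 without siRNA A replicate 2, and 1 gene rose without siRNA B replicate 2. In siRNA B the rises were 5 without siRNA B replicate 2, 2 without siRNA A replicate 2 and none on dropping control replicate 2 or 3, or replicate 1 or 3 of siRNA B, and the single fall, that of PLK1, was lost on dropping control replicate 1 or 3 or any siRNA B library. DESeq2 called 3 rises in siRNA B. With library totals 12 fell in siRNA A, and with the PCR reference genes 14 fell there and 12 in siRNA B. Over all 13893 tested genes, 6532 fell in siRNA A with library totals. The PCR reference genes gave 8371 falls there and 9155 in siRNA B. Under both of these scalings 0 rose in siRNA B, so the TOP2A rise was lost.

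**Figure D5:**
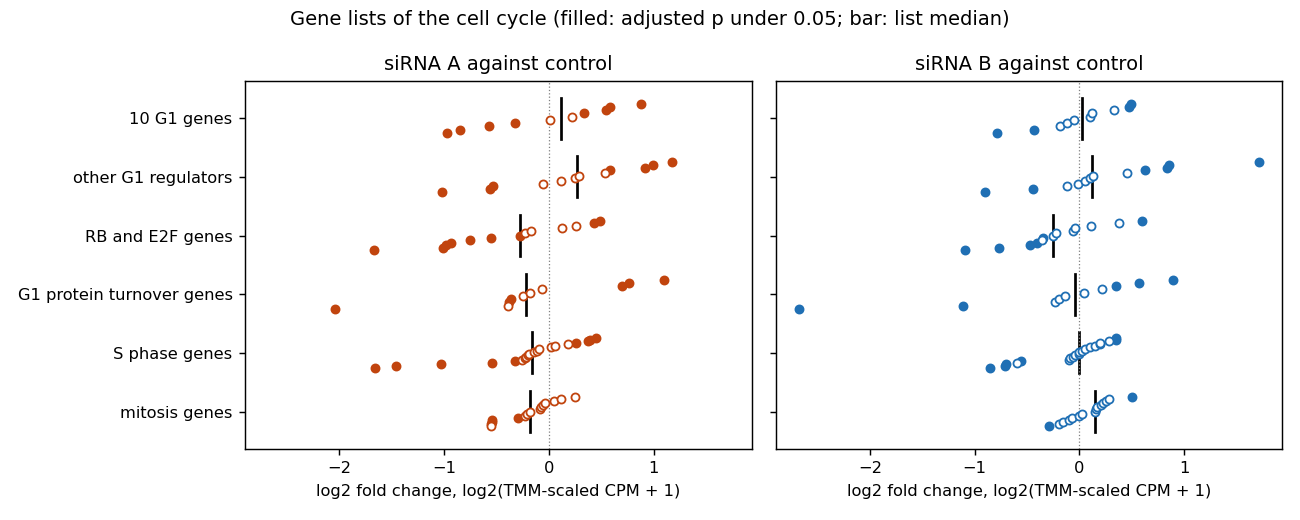
Log2 fold change against control (horizontal axis) of the 10 G1 genes and of 5 lists of cell cycle genes, for siRNA A and siRNA B; each point is a gene, filled where the limma adjusted p was under 0.05, and bars are list medians. CDC34, at −2.04 and −2.68, lies farthest left among the turnover genes, E2F1 farthest left among the RB and E2F genes, and CDKN1A is the point at 1.72 in siRNA B.

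For the genes called against control with both siRNAs, the most similar profiles were sought by the root mean square difference of log2 level relative to the control mean over 9 libraries. MAP2K1 (0.0567) and ZNF639 (0.0591) were nearest to CCND1. That MAP2K1 rose by 0.85 and 0.54 follows from its choice by likeness and is no separate result. LONP1 (0.0904) and ACBD6 (0.0920) were nearest to CCND3, TRIM47 (0.0752) to CCNE1, and MIER1 (0.0544) and THUMPD3-AS1 (0.0849) to CDKN1B. Among the 10 genes themselves CCND1 and CDKN1B were each other's nearest, at 0.234, farther than either was from those genes.

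Annotated neighbours limit some values, since use of strand in counting was not stated. LTO1 overlaps CCND1, INTS8 and NDUFAF6 overlap CCNE2, PMEL overlaps CDK2, MARCHF9 and TSPAN31 overlap CDK4, CDK6-AS1 overlaps CDK6 and GPR19 overlaps CDKN1B, all on the other strand. CDC25A, CCND3 and CDKN2C overlap pseudogenes, small RNA genes or unnamed genes. Of the other genes named, CDKN1A overlaps DINOL, CDKN2A overlaps CDKN2B-AS1 and CHAF1A overlaps UBXN6, also on the other strand. So do GINS2 with GSE1, PLK1 with ERN2 and RBL2 with AKTIP. CDC34, E2F1, E2F2, TFDP1, CDKN1C, RBX1 and MKI67 overlap none. How the authors' counting divided such reads was not tested.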

How the data were processed

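Per the labels, oligo-dT selected RNA of HCT116 cells gave single-end reads of 50 bases on an Illumina HiSeq. The authors deposited 1 table in CPM, gene reads brought to a common library total, with 15354 rows and 9 columns. The submitters' processing notes name TopHat2, HTSeq and GRCh37 (hg19), while the annotation and the use of strand are not given in the sources used here. Within a tolerance of 0.01 read, 100% of values were whole multiples of 1 read, so reads and library totals (15566530 to 23277549) were recovered. A level of 1 CPM stood for 15.6 to 23.3 reads, and counting error is the only error these depths cover. The table had been expected to hold counts or CPM, and the CPM test was used.

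Groups were taken from the labels. Each library was scaled by its TMM factor (edgeR 4.0.16), and log2(CPM + 1) of the 13893 genes (90.5%) that reached 1 CPM in 3 or more of the 9 libraries was fitted in 1 model with a mean per group (limma 3.58.1, trend on the mean, R 4.3.3). This scale understates changes of low genes. P-values were two-sided, adjusted by Benjamini-Hochberg over all tested genes, with a threshold of 0.05. The model was tested on simulated data before use. Ratios were compared by exact permutation (scipy 1.17.1). Libraries of 1 group differed by a chi-square of at least 12.6 per degree of freedom and were kept as separate replicates.

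Whether replicate numbers pair libraries was checked on their deviations from group means, correlated over genes. Between control and siRNA A these were 0.65, 0.41 and 0.13 for numbers 1, 2 and 3, so the numbers pair those libraries by that rule, a hint from the data and not from the labels. Between control and siRNA B they were 0.17, 0.44 and −0.39, and between siRNA A and siRNA B 0.20, 0.44 and 0.019, so there they do not. The largest correlations with siRNA B joined different numbers. They were 0.68 for control 1 with siRNA B 3 and 0.59 for siRNA A 1 with siRNA B 3.

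After dropping versions, 14871 of 15354 identifiers were found in GENCODE v44 lifted to GRCh37. Gene positions are from that annotation, and promoters from RefSeq on GRCh38.p14. Alternatives were other scalings, pseudocounts and filters, edgeR and DESeq2 1.42.0 on recovered reads, a replicate block, and leaving out each library. The 10 genes were named in full. Of each other list, up to 3 genes with the largest changes past the threshold in each comparison with control were named, with those called in opposite directions, and the 2 nearest profiles of each of the 10 genes called with both siRNAs, of which 1 is not reported here. The genes and lists were chosen with earlier results of these data known. Markers of other cell types gave 1 higher and 2 lower of 5 tested in siRNA A and 1 and 1 in siRNA B, and colon epithelial markers 4 and 2 of 8, and 3 and 1 of 8.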

Additional observations from a re-analysis of the deposited data

Results flagged for a closer look

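The effects of the siRNAs against the shared control differed by the direct limma test of siRNA A minus siRNA B in 7 of the 10 G1 genes. Among all tested genes 17.8% were higher and 19.3% lower in siRNA A than in siRNA B. The differences on the log2 scale were 0.38 for CCND1, −0.42 for CCND3, 0.47 for CCNE1, −0.46 for CCNE2, 0.52 for CDK6, −1.30 for CDKN2C and 0.46 for CDC25A. Those of CCND1, CCND3 and CDC25A were lost on leaving out single libraries, as given above.

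In 3 genes of the other lists the siRNAs were called in opposite directions against control. The share of all tested genes called in opposite directions was not computed, so this count is not read as a result. The siRNA A minus siRNA B difference was 0.83 for E2F6, −1.05 for TOP2A and −1.39 for ACTA2, a smooth muscle actin at 0.960 to 6.12 TMM-scaled CPM. ACTA2 overlaps ACTA2-AS1, FAS and STAMBPL1 on the other strand. Groups of 3 libraries were too small to test for a single outlying library.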

How the results depend on the processing

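Under 18 alternatives to each comparison of the 10 genes, 488 values stayed on their side of the threshold, 35 lost the call, 6 gained it and 11 changed sign where the original or the alternative value was called. Uncalled values that changed sign and stayed uncalled count among the 488. The number called ranged on leaving out 1 library from 7 to 8 (siRNA A against control), 2 to 4 (siRNA B against control, the lowest without control replicate 2) and 4 to 7 (siRNA A against siRNA B, the lowest without siRNA B replicate 1). Over all tested genes the numbers called on leaving out 1 library ranged from 6027 to 7677, 3499 to 4936 and 4012 to 5116, in that order. Scaled to the PCR reference genes, 7 of the 10 were called in siRNA B and 3 between siRNAs. With that scaling 9318 genes were called in siRNA B in place of 4715, and 3535 between siRNAs in place of 5152. Such sign changes came with that scaling for CCND1 in siRNA B (−0.16), CDK2 (−0.61 in siRNA A, −0.55 in siRNA B), CDK4 in siRNA A (−0.39), CDK6 in siRNA A (−0.28), CDKN1B (−0.062 and −0.17) and CDC25A (−0.033 and −0.53), and with library totals for CDK2 (−0.36) and CDK6 (−0.032) in siRNA A. The CDK4 to CDK6 log2 change of −0.12 in siRNA A ranged from −0.23 to 0.0023 (without control replicate 1) on leaving out 1 library, and that of 0.13 in siRNA B from −0.0098 (without siRNA B replicate 3) to 0.33. The cause was not tested.

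By the correlations above, replicate numbers did not pair the siRNA B libraries with those of the other groups, which limits a block on that number. With the replicate number as a block, 8, 5 and 7 of the 10 genes were called in the 3 comparisons in place of 8, 4 and 7. The gain was CDKN2C in siRNA B (0.33, adjusted p = 0.0442, limma; 0.0397 by edgeR with the block, added after seeing the data), and no other call among the 10 changed. The block raised the genes called overall from 7156, 4715 and 5152 to 8088, 5784 and 6239. The edgeR and DESeq2 tests, which called 7160 and 7251 genes for siRNA A and 4780 and 5047 for siRNA B, made 8 and 4 calls among the 10, as limma did.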
